A study of Mus musculus with 8 samples.

Results

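The messenger RNAs of the SR proteins and of the heterogeneous nuclear ribonucleoproteins (hnRNPs), the families of RNA-binding proteins that steer the choice of splice sites, were measured in activated B cells with and without EIF4A1. The 31 members were the genes whose symbol was Srsf followed by a number (11 genes) or began with Hnrnp (20 genes), among the 53242 genes in the tables, and 3 pseudogenes with -ps in their name were left out. EIF4A1 is the RNA helicase of the cap-binding complex that starts translation. Splenic B cells of C57BL/6 mice aged 8 to 12 weeks carried Cd23-cre in both groups, with floxed Eif4a1 (Eif4a1 fl/fl) in the group called 4A1 KO and wild-type Eif4a1 (Eif4a1 +/+) in the control group. They were grown for 24 h with 40 ng/ml IL4 on irradiated CD40LB cells, a fibroblast line that presents CD40 ligand, and the feeder cells were removed through their H-2Kd before RNA isolation. Each genotype had 4 libraries from 4 mice, numbered 1 to 4: odd numbers came from males and even numbers from females, 1 and 2 formed batch A, and 3 and 4 formed batch B. Replicate 1 of both genotypes was left out of the main fit because the study's methods describe reduced viability, so n = 3 per genotype unless all 8 libraries are named. Cd23-cre acts from the immature splenic B cell onward, and the measurements were made on whole B cell preparations, in which cells that kept an undeleted allele were not separated.

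SR proteins bind exons through RNA recognition motifs and recruit the splicing machinery through a domain rich in arginine and serine, which SR kinases phosphorylate. The hnRNPs coat nascent transcripts; many of them repress nearby splice sites, and several also act in the export, stability or translation of mRNA. Many genes of both families hold ultraconserved or poison exons whose inclusion sends their own transcript to nonsense-mediated decay, a surveillance that depends on translation. In the GENCODE M39 annotation all 11 SR genes and 14 of 20 hnRNP genes have at least 1 transcript annotated for nonsense-mediated decay, against 76.6% of the 11436 protein-coding genes tested, and the median number was 21 per SR gene, 4.5 per hnRNP gene and 4 per protein-coding gene. Srsf5, with 55, had the most among the members. The deposited counts merge the isoforms of a gene, so the values below are totals over coding and decay transcripts, and the use of poison exons was not measured.

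Between 31727557 and 43210858 reads were counted per library. CPM are counts scaled to library size with edgeR's TMM factors, and they compare 1 gene between libraries. TPM are transcript levels scaled by length as well, and they compare genes. Eif4a1 itself had 815, 746, 941 and 889 CPM in controls 1 to 4, against 593, 559, 642 and 689 CPM in 4A1 KO 1 to 4, every 4A1 KO library below every control library (log2 fold change -0.44, SE 0.05, adjusted p = 1.15e-04, edgeR with Benjamini-Hochberg adjustment). These reads cover the whole gene, including exons outside the deleted part. The summed level of 7 B cell markers lay between 9614 and 13379 TPM in controls and between 10001 and 14392 TPM in 4A1 KO, higher in 4A1 KO in each of the 4 same-numbered pairs, with Cd79a, Cd79b and Cd22 lower in 4A1 KO past both limits used below, and Pax5 lower and Cd74 higher past the adjusted p alone. The 10 fibroblast markers summed to 2.95 to 14.3 TPM in controls and 3.95 to 8.85 TPM in 4A1 KO, with Postn and Lum at 0 and Col3a1 (1 to 38 reads per library) lower in 4A1 KO past both limits, and T cell markers to at most 0.367 TPM, with Cd3g at 0. Myeloid markers summed to 2.76 to 5.32 TPM in controls and 4.02 to 6.35 TPM in 4A1 KO, with S100a8 and S100a9 at 0 and Adgre1 higher in 4A1 KO. Their part in the results was not tested. In whole preparations, fewer cells of a type and less RNA per cell cannot be told apart.

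Both families were abundant in these cells. Over the 6 libraries of the main fit the highest members were Hnrnpa2b1 (1600.3 TPM), Hnrnpab (1347 TPM) and Hnrnpa1 (970.4 TPM) among the hnRNPs, and Srsf2 (777 TPM), Srsf5 (651 TPM) and Srsf7 (449 TPM) among the SR genes. At the other end stood Hnrnph3 (28.4 TPM), Hnrnpll (3.55 TPM) and Srsf12 (0.0343 TPM), the last with 0 to 4 reads per library and too few to test. The 20 hnRNP members together held 10602, 10854 and 10974 TPM in controls 2, 3 and 4 and 9716, 10468 and 10112 TPM in 4A1 KO 2, 3 and 4. The mean in 4A1 KO differed from that of the controls by -6.58%, and same-numbered pairs differed by -8.36%, -3.55% and -7.86%. The pair of replicate 1 differed by -3.58%, so the sum was lower in 4A1 KO in 4 of 4 pairs. The 11 SR members held 3508, 3836 and 3929 TPM in controls and 3368, 3815 and 3727 TPM in 4A1 KO, a difference of -3.22%, and same-numbered pairs differed by -3.98%, -0.55% and -5.14%. In the pair of replicate 1 the SR sum was 3.12% higher in 4A1 KO. No test was made of either sum.

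Only 1 of the 30 members tested, Hnrnpll, was called, which takes an adjusted p under 0.05 together with a log2 fold change of more than 0.5 in either direction, while 25.3% of the 14218 genes tested were (11.6% higher and 13.7% lower in 4A1 KO). None of the 10 SR members tested was called by edgeR, nor by DESeq2, although 6 of them had an unadjusted p under 0.05 in edgeR. Most members are well expressed, and of the 1891 genes that averaged 100 TPM or more 12.9% were called. Smaller changes were frequent. By edgeR 18 of 30 members (60.0%) reached an adjusted p under 0.05 at any fold change, against 53.0% of all genes tested (26.3% higher, 26.7% lower). Of the genes that averaged 100 TPM or more 60.9% did, 507 higher and 645 lower in 4A1 KO. Both families were split. Of 10 SR members 2 rose, 4 fell and 4 did not pass, and of 20 hnRNP members 4 rose, 8 fell and 8 did not pass. The median log2 fold change was -0.06 over the SR members (-0.02 with all 8 libraries and -0.04 with upper quartile factors) and -0.08 over the hnRNP members. It was 0.01 over all genes tested and -0.03 over the genes that averaged 100 TPM or more. The median absolute log2 fold change was 0.17 over the members, 0.20 over the genes that averaged 100 TPM or more and 0.31 over all genes. Over all 8 libraries the CPM of the genotypes did not overlap for 13 members (43.3%), 9 lower and 4 higher in 4A1 KO, against 36.8% of all genes tested. By TPM the genotypes did overlap for Srsf4, Hnrnpa3, Hnrnpa2b1, Hnrnpk and Hnrnpul2 among these. Hnrnpd overlapped by CPM and not by TPM. The p-values came from the quasi-likelihood test of edgeR, adjusted over all genes by the Benjamini-Hochberg method, and all folds, percent changes of single genes and adjusted p-values below come from it unless limma is named, while means ± SD are of the libraries' CPM. Without the replicate block 13 members passed, and Srsf5, Srsf7, Hnrnpa2b1, Hnrnpd and Hnrnpk did not.

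**Figure D1:**
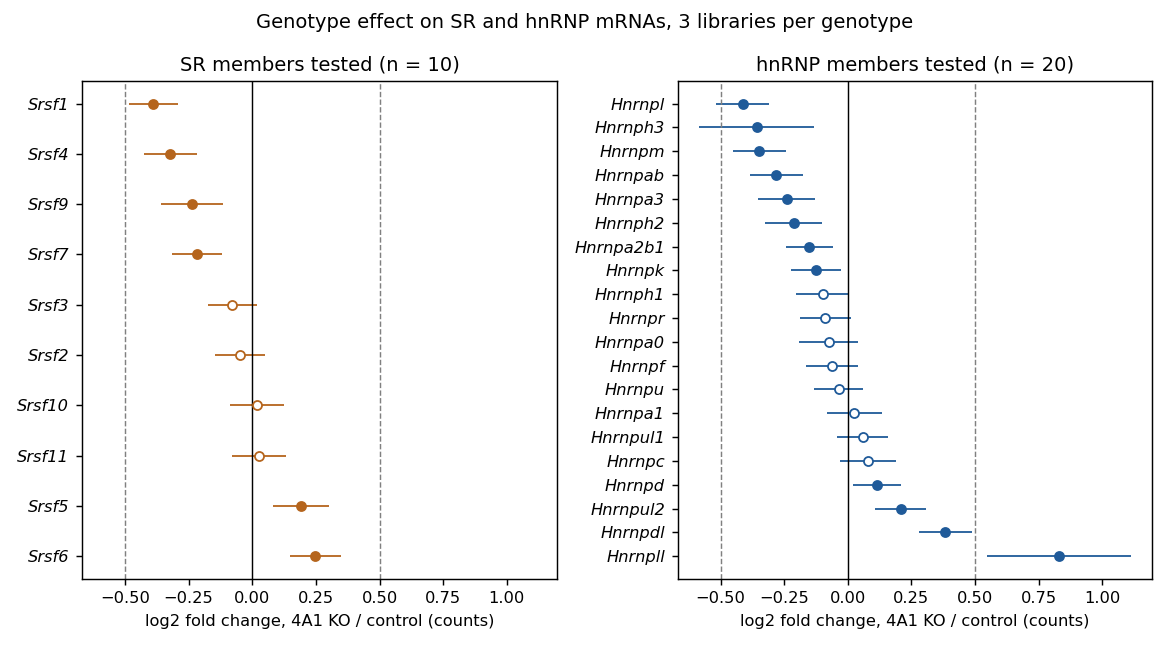
Log2 fold change of each tested member between 4A1 KO and control (x axis, from counts, 3 libraries per genotype), with SR genes on the left and hnRNP genes on the right; bars are 95% intervals, filled points have an adjusted p under 0.05 and dashed lines mark 0.5 in each direction. Members lie on both sides of 0 in each family, between -0.41 for Hnrnpl and 0.83 for Hnrnpll, and Hnrnpll is the only one beyond a dashed line.

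Among the SR genes that fell, Srsf1 changed most. Positions of genes are those of GRCm39. Srsf1 (chromosome 11 from 87938129 to 87944581), an activator of exon inclusion with roles in mRNA export and translation, had 582, 744 and 739 CPM in controls 2, 3 and 4 and 448, 563 and 566 CPM in 4A1 KO 2, 3 and 4. Control 1 had 495 CPM and 4A1 KO 1 had 407 CPM. The libraries of batch A were lower in both genotypes, so that the 8 values overlap between genotypes, but within each batch both controls stood above both 4A1 KO libraries. The fitted change was -23.6%, and the means were 688 ± 91.9 CPM in control and 526 ± 67.5 CPM in 4A1 KO (log2 fold change -0.39, SE 0.04, adjusted p = 9.39e-05, n = 3). Srsf4 (chromosome 4 from 131600816 to 131630471), an SR protein with a long arginine-serine domain, had 149, 163, 167 and 186 CPM in controls 1 to 4, against 125, 129, 136 and 148 CPM in 4A1 KO 1 to 4. No 4A1 KO library reached the lowest control, and the gene fell from 172 ± 12.3 CPM in control to 138 ± 9.47 CPM in 4A1 KO (log2 fold change -0.32, SE 0.05, adjusted p = 4.52e-04). Another gene, A930004J17Rik, overlaps Srsf4 on the same strand, with at most 301 counts in a library.

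Srsf9 and Srsf7 fell less. Srsf9 (chromosome 5 from 115465189 to 115476335), a short SR protein, had 86.2, 95.8, 90.2 and 88.4 CPM in controls 1 to 4, against 77.8, 77.4, 79.2 and 76.1 CPM in 4A1 KO 1 to 4, with no overlap between the genotypes (log2 fold change -0.24, SE 0.05, adjusted p = 0.00528). Srsf7 (chromosome 17 from 80507501 to 80514879), an SR protein with a zinc knuckle that also takes part in mRNA export and polyadenylation, had 396, 365, 459 and 453 CPM in controls 1 to 4, against 379.7, 320.4, 386 and 389.6 CPM in 4A1 KO 1 to 4. Each 4A1 KO library lay below the control of its number, by the least in replicate 1 (-0.06 on the log2 scale), and the values of the genotypes overlap (log2 fold change -0.22, SE 0.04, adjusted p = 0.00256). Batch B stood above batch A for Srsf1, Srsf4 and Srsf7 in both genotypes.

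Srsf6 and Srsf5 were the SR genes that rose. Srsf6 (chromosome 2 from 162773299 to 162780234), a regulator of exon inclusion related to Srsf4, had 561, 512, 572 and 572 CPM in controls 1 to 4, against 705, 619, 699 and 649 CPM in 4A1 KO 1 to 4. All 4 4A1 KO libraries lay above all 4 controls, the fitted increase was 18.7%, and the means were 552 ± 34.4 CPM in control and 656 ± 40.0 CPM in 4A1 KO (log2 fold change 0.25, SE 0.04, adjusted p = 0.0014, n = 3). Srsf5 (chromosome 12 from 80986436 to 80997630), a splicing activator first described as induced in growing liver cells, had 610.3, 560.3, 501 and 485 CPM in controls 1 to 4, against 709, 605, 607 and 553 CPM in 4A1 KO 1 to 4. It was higher in 4A1 KO in 4 of 4 same-numbered pairs, although control 1 exceeded 3 of the 4A1 KO libraries (log2 fold change 0.19, SE 0.05, adjusted p = 0.00889). Without replicate 3 its adjusted p no longer passed.

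The other SR members did not pass. Srsf2, which binds exonic enhancers and whose protein marks nuclear speckles, had 733, 730.0, 812 and 793 CPM in controls 1 to 4, against 824, 703, 819.8 and 738 CPM in 4A1 KO 1 to 4 (log2 fold change -0.05, SE 0.04, adjusted p = 0.38, 95% interval -0.15 to 0.05). Its sign depended on the libraries: replicates 1 and 3 were higher in 4A1 KO and replicates 2 and 4 lower. Srsf3, the smallest SR protein and a factor in mRNA export, had 528, 496, 511 and 530.4 CPM in controls 1 to 4, against 564, 475, 489 and 492 CPM in 4A1 KO 1 to 4 (log2 fold change -0.08, SE 0.04, adjusted p = 0.15, 95% interval -0.17 to 0.02). For Srsf10, a splicing repressor when dephosphorylated, and for Srsf11 the log2 fold changes were 0.02 (95% interval -0.09 to 0.12) and 0.03 (95% interval -0.08 to 0.13), both in overlapping groups. The intervals of these 4 genes leave out changes of the size of the fall of Srsf1.

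**Figure D2:**
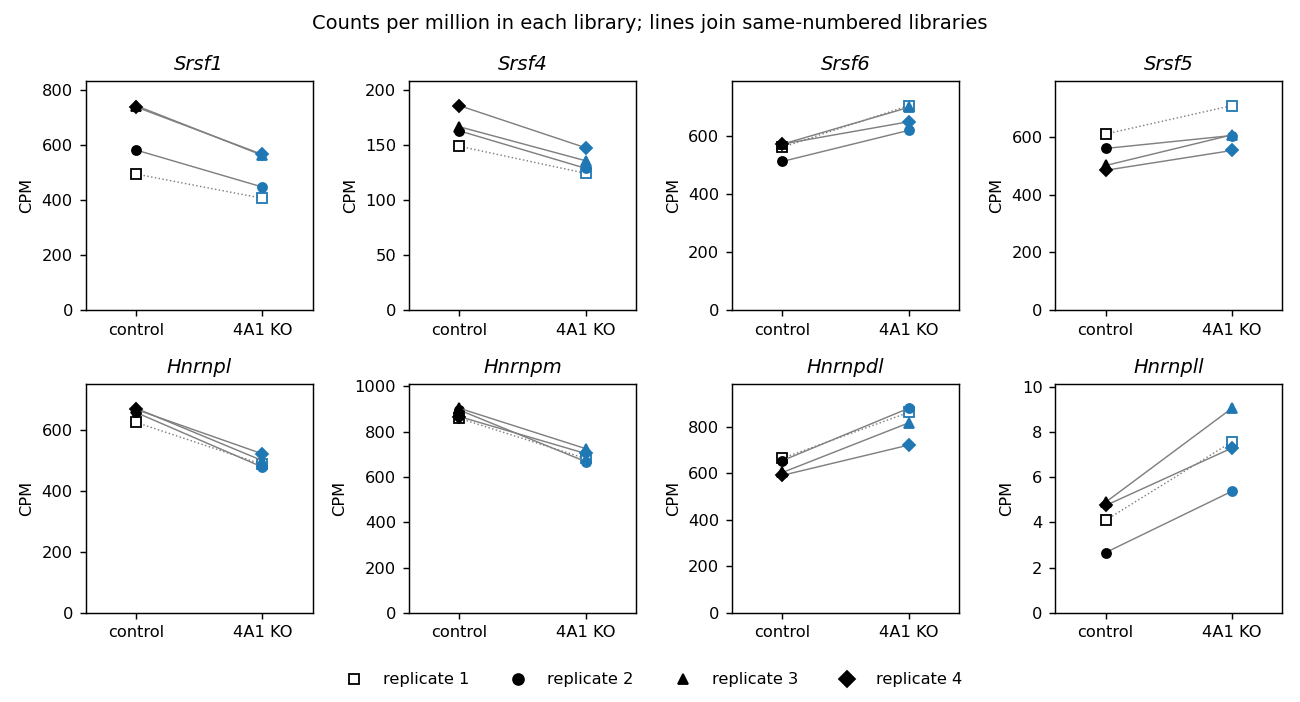
CPM (y axis, from 0) of 4 SR genes (top) and 4 hnRNP genes (bottom) in each control library (black) and 4A1 KO library (blue); symbols give the replicate number, open squares are replicate 1, which is outside the main fit, and lines join libraries of the same number. Srsf1, Srsf4, Hnrnpl and Hnrnpm fall and Srsf6, Srsf5, Hnrnpdl and Hnrnpll rise along each of the 4 lines, and for Srsf1 and Srsf5 the offset between lines makes the groups overlap.

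The fall among the hnRNPs was led by Hnrnpl. Hnrnpl (chromosome 7 from 28507966 to 28521693), which binds CA-rich RNA and represses or activates exons depending on position, had 626, 658, 672 and 668 CPM in controls 1 to 4, against 487, 479, 500.0 and 522 CPM in 4A1 KO 1 to 4. The controls lay close together and every 4A1 KO library was below them. The fitted change was -24.9%, and the means were 666 ± 7.16 CPM in control and 500.3 ± 21.7 CPM in 4A1 KO (log2 fold change -0.41, SE 0.05, adjusted p = 1.03e-04, n = 3). Hnrnpm (chromosome 17 from 33865207 to 33905834), a repressor that binds GU-rich RNA, had 859, 896, 904 and 867 CPM in controls 1 to 4, against 682, 668, 725 and 704 CPM in 4A1 KO 1 to 4, again with no overlap (log2 fold change -0.35, SE 0.05, adjusted p = 3.04e-04). Marchf2 overlaps part of Hnrnpm on the same strand, with at most 1011 counts in a library. Hnrnpab (chromosome 11 from 51487363 to 51510327), related to Hnrnpd, had 1508, 1569 and 1609 CPM in controls 2, 3 and 4 and 1209.9, 1373 and 1278 CPM in 4A1 KO 2, 3 and 4 (log2 fold change -0.28, SE 0.05, adjusted p = 9.03e-04). Control 1, with 1356 CPM, was the lowest control and below 4A1 KO 3, so that the 8 libraries overlap. 4A1 KO 1 had 1241 CPM, and 4A1 KO was lower in each of the 4 pairs.

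Hnrnph3 and Hnrnph2 belong to the subfamily that binds runs of G. Hnrnph3 (chromosome 10 from 62849329 to 62860506), among the lowest members, had 30.4, 33.9, 29.4 and 28.5 CPM in controls 1 to 4, against 23.7, 21.6, 25.2 and 24.6 CPM in 4A1 KO 1 to 4, with no overlap (log2 fold change -0.36, SE 0.10, adjusted p = 0.0141). Its largest difference was in replicate 2 (-0.65 on the log2 scale against -0.22 and -0.21 in replicates 3 and 4), and without that replicate it did not pass. Hnrnph2 (chromosome X from 133501878 to 133507810) had 134, 133, 128 and 128 CPM in controls 1 to 4, against 112, 111, 113 and 112 CPM in 4A1 KO 1 to 4. These groups did not overlap and the 4A1 KO libraries were within a narrow range (log2 fold change -0.21, SE 0.05, adjusted p = 0.00591), but without replicate 2 this gene did not pass either. Hnrnph1, second to Hnrnpf in TPM among these G-binding members, had 544, 500.4, 551 and 586 CPM in controls 1 to 4, against 508, 456, 545 and 528 CPM in 4A1 KO 1 to 4, lower in 4A1 KO in 4 of 4 pairs by an amount that did not pass (log2 fold change -0.10, SE 0.05, adjusted p = 0.0997).

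Hnrnpa2b1, Hnrnpk and Hnrnpa3 fell by less than Hnrnpl. Hnrnpa2b1 (chromosome 6 from 51435248 to 51448049), which binds splicing silencers and sorts RNA cargoes, had 1376, 1476, 1525 and 1454 CPM in controls 1 to 4, against 1284, 1331, 1375 and 1306 CPM in 4A1 KO 1 to 4, with the lowest control above the highest 4A1 KO library (log2 fold change -0.15, SE 0.04, adjusted p = 0.0124). Hnrnpk (chromosome 13 from 58536691 to 58551339), a KH-domain protein that binds C-rich RNA and DNA, had 894, 985, 960.1 and 921 CPM in controls 1 to 4, against 841, 888, 871 and 869 CPM in 4A1 KO 1 to 4, also without overlap (log2 fold change -0.12, SE 0.04, adjusted p = 0.0361). Hnrnpa3 (chromosome 2 from 75489605 to 75499751) had 119, 123, 126 and 123 CPM in controls 1 to 4, against 109, 101, 108 and 106 CPM in 4A1 KO 1 to 4, and fell by 15.4% with no overlap (log2 fold change -0.24, SE 0.05, adjusted p = 0.00331). Of these, Hnrnpa2b1 and Hnrnpk did not pass without replicate 2 or without replicate 3, nor Hnrnpk with upper quartile factors (adjusted p = 0.0742, edgeR). Leaving out replicate 2 reduced the number of hnRNP members that fell from 8 to 4, which were Hnrnpl, Hnrnpm, Hnrnpab and Hnrnpa3.

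The largest increase was that of Hnrnpll. Hnrnpll (chromosome 17 from 80335472 to 80370014), a lymphocyte regulator of the splicing of Ptprc exons and of immunoglobulin heavy chain transcripts in plasma cells, had 4.09, 2.66, 4.89 and 4.75 CPM in controls 1 to 4, against 7.56, 5.38, 9.05 and 7.29 CPM in 4A1 KO 1 to 4. These values rest on 166, 108, 203 and 205 reads in controls 1 to 4, against 240.0, 206, 366 and 312 reads in 4A1 KO 1 to 4. The lowest 4A1 KO library was above the highest control, the means were 4.10 ± 1.25 CPM in control and 7.24 ± 1.84 CPM in 4A1 KO, and the fitted fold was 1.78 (log2 fold change 0.83, SE 0.12, adjusted p = 5.82e-04, 95% interval 0.55 to 1.11, n = 3). It was called in each of the 12 other settings of the count analysis, with log2 fold changes of 0.76 to 0.94 when a replicate was left out.

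Hnrnpdl, Hnrnpul2 and Hnrnpd rose by less. Hnrnpdl (chromosome 5 from 100179317 to 100187792), a paralog of Hnrnpd that regulates its own splicing, had 666, 655, 604 and 592 CPM in controls 1 to 4, against 863, 881, 818 and 722 CPM in 4A1 KO 1 to 4. All 4A1 KO libraries exceeded all controls, with means of 617 ± 33.6 CPM in control and 807 ± 79.9 CPM in 4A1 KO and a fitted increase of 30.4% (log2 fold change 0.38, SE 0.05, adjusted p = 1.68e-04, n = 3). Hnrnpul2 (chromosome 19 from 8796925 to 8811507), a protein related to Hnrnpu with a role in DNA end resection, had 333, 375, 349 and 339 CPM in controls 1 to 4, against 383, 419, 412 and 395 CPM in 4A1 KO 1 to 4, with no overlap (log2 fold change 0.21, SE 0.04, adjusted p = 0.0041). Gm50139 overlaps Hnrnpul2 on the same strand and had up to 2975 counts in a library, and the counts cannot be divided between these genes. Hnrnpd (chromosome 5 from 100103794 to 100127029), which binds AU-rich elements and promotes mRNA decay, had 734, 740.1, 761 and 720.0 CPM in controls 1 to 4, against 846, 822, 827 and 755 CPM in 4A1 KO 1 to 4. It was higher in 4A1 KO in 4 of 4 pairs (log2 fold change 0.11, SE 0.04, adjusted p = 0.047), close to the threshold, and did not pass without replicate 2, without replicate 3 or with DESeq2 (adjusted p = 0.0928).

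Among the 8 hnRNP members that did not pass, log2 fold changes ran from -0.10 for Hnrnph1 to 0.08 for Hnrnpc. Hnrnpa1, a repressor that binds silencers in exons and introns, had 1189, 1166, 1167 and 1151 CPM in controls 1 to 4, against 1277, 1127, 1264 and 1159 CPM in 4A1 KO 1 to 4 (log2 fold change 0.03, SE 0.05, adjusted p = 0.681, 95% interval -0.08 to 0.13), and the 4A1 KO males were higher than the 4A1 KO females. Hnrnpu, a scaffold protein of the nuclear matrix, had 1415, 1679, 1684 and 1676 CPM in controls 1 to 4, against 1471, 1590.3, 1703 and 1621 CPM in 4A1 KO 1 to 4 (log2 fold change -0.04, SE 0.04, adjusted p = 0.5, 95% interval -0.13 to 0.06), with both replicate 1 libraries lowest. Hnrnpul1 had 375, 454, 408 and 398 CPM in controls 1 to 4, against 408, 458, 436 and 417 CPM in 4A1 KO 1 to 4 (log2 fold change 0.06, SE 0.04, adjusted p = 0.293), higher in 4A1 KO in 4 of 4 pairs with overlapping groups. Hnrnpc, which binds U tracts and keeps cryptic exons out of mRNA, passed with all 8 libraries (0.12, adjusted p = 0.0484) and not in the 6. Hnrnpr (-0.09), Hnrnpa0 (-0.08) and Hnrnpf (-0.06) complete the family, and over these 8 genes the lowest bound of a 95% interval was -0.20, for Hnrnph1, and the highest 0.19, for Hnrnpc.

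Ratios of related members were compared within libraries. The ratio of 2 genes within a library does not depend on how libraries are scaled, and it was computed from TPM for 8 pairs in all 8 libraries and compared with 2-sided exact permutation tests. Their smallest possible p is 0.0286, and the p-values were adjusted over the 8 pairs with the Benjamini-Hochberg method. Hnrnpl exceeded its paralog Hnrnpll 223-fold in controls and 90.2-fold in 4A1 KO. The log2 ratios were 7.69, 8.26, 7.78 and 7.46 in controls 1 to 4, against 6.40, 6.84, 6.16 and 6.58 in 4A1 KO 1 to 4, with no overlap (difference -1.30, exact p = 0.0286, adjusted p = 0.0571). Srsf4 to Srsf6 had log2 ratios of -1.53, -1.15, -1.29 and -1.12 in controls 1 to 4, against -1.99, -1.76, -1.86 and -1.67 in 4A1 KO 1 to 4, so that Srsf6 exceeded Srsf4 2.41-fold in controls and 3.54-fold in 4A1 KO (difference -0.55, exact p = 0.0286, adjusted p = 0.0571).

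Hnrnpd to Hnrnpdl had log2 ratios of 0.69, 0.72, 0.87 and 0.78 in controls 1 to 4, against 0.47, 0.40, 0.51 and 0.58 in 4A1 KO 1 to 4 (difference -0.27), and Hnrnpa1 to Hnrnpa2b1 of -0.69, -0.77, -0.85 and -0.78 in controls 1 to 4, against -0.50, -0.69, -0.59 and -0.64 in 4A1 KO 1 to 4 (difference 0.17). Neither pair overlapped between the genotypes, and both had an exact p of 0.0286 and an adjusted p of 0.0571. Srsf2 to Srsf1 had 1.52, 1.29, 1.06 and 1.15 in controls 1 to 4, against 1.99, 1.67, 1.63 and 1.38 in 4A1 KO 1 to 4 (difference 0.42, exact p = 0.0571, adjusted p = 0.0914), higher in 4A1 KO in 4 of 4 pairs but with overlap. The ratios of Hnrnph1 to Hnrnph2 (difference 0.18, exact p = 0.114), Srsf3 to Srsf7 (0.11, exact p = 0.314) and Hnrnpu to Hnrnpul1 (-0.05, exact p = 0.429) overlapped. Within same-numbered pairs Hnrnph1 to Hnrnph2 was higher in 4A1 KO in 4 of 4, Hnrnpu to Hnrnpul1 lower in 4 of 4 and Srsf3 to Srsf7 higher in 3 of 4. A 2-sided exact test that turns the signs of the 4 pairs gave p = 0.125, the smallest it allows, for 7 of the 8 ratios and p = 0.25 for Srsf3 to Srsf7. No pair passed an adjusted p of 0.05; 4 pairs were at the smallest p that 4 libraries against 4 allow, and the 8 pairs were measured in the same libraries. Ratios of counts had the same direction as ratios of TPM in all 8 pairs, but Hnrnpa1 to Hnrnpa2b1 overlapped by counts (exact p = 0.0571, adjusted p = 0.114) and the other 3 separated pairs had an adjusted p of 0.0762.

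**Figure D3:**
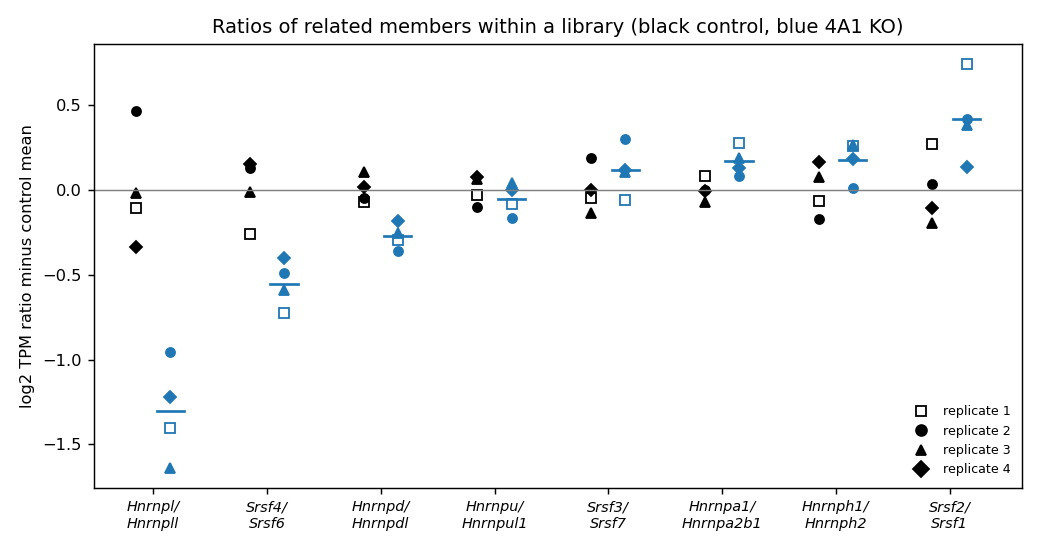
Log2 ratio of TPM of related members within each library, minus the mean of the 4 controls (y axis), for the 8 pairs (x axis); black symbols are controls, blue symbols 4A1 KO, symbols give the replicate number and blue lines the 4A1 KO mean. The groups do not overlap for Hnrnpl/Hnrnpll (mean difference -1.30), Srsf4/Srsf6 (-0.55), Hnrnpd/Hnrnpdl (-0.27) and Hnrnpa1/Hnrnpa2b1 (0.17).

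TPM, which came from another program than the counts, gave a second measure of the same members. With limma on log2(TPM + 1) and Benjamini-Hochberg adjustment, 15 of 30 members passed an adjusted p under 0.05, against 50.7% of the 12976 genes tested, and all 15 were among the 18 that passed by counts. Hnrnph3 (-0.25, adjusted p = 0.0758), Hnrnpa3 (-0.24, adjusted p = 0.18) and Hnrnpd (0.06, adjusted p = 0.218) passed by counts and not by TPM, with the same sign in both. Hnrnph3 passed by TPM with all 8 libraries (-0.27, adjusted p = 0.0171, limma), and without replicate 2 the TPM differences were -0.12 for Hnrnph3 and -0.02 for Hnrnpa3. The sign was the same for 28 of 30 members, Hnrnpa1 and Hnrnpu being the others, with differences near 0. Hnrnpll differed most between the measures, 0.83 by counts and 0.63, adjusted p = 0.00551 by TPM, where the added 1 TPM is large beside its level. Without the replicate block Hnrnpll did not pass by TPM.

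**Figure D4:**
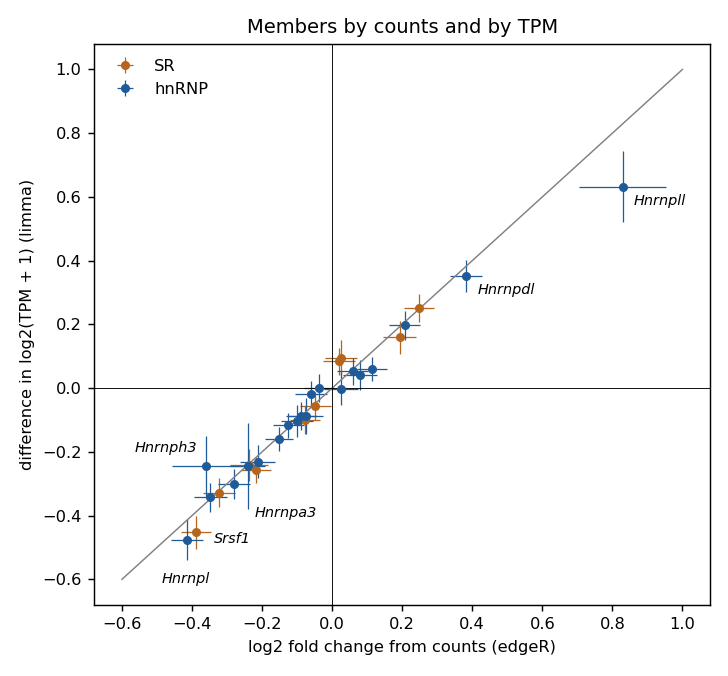
Log2 fold change from counts by edgeR (x axis) against the difference in log2(TPM + 1) by limma (y axis) for the 30 tested members, SR in brown and hnRNP in blue, with standard errors as bars and the line of equality in grey. Most members lie on the line; Hnrnpll lies below it (0.83 against 0.63) and Hnrnpa3 and Hnrnph3 have the longest TPM bars among the members that fell.

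Hnrnpa3 is the member most exposed to reads shared with near-identical copies. Its 25 annotated pseudogenes with at least 95% identity over at least 300 bases held counts equal to 92.6% of those of Hnrnpa3 and TPM equal to 537% of its TPM. The TPM of Hnrnpa3 varied more than its CPM, with 138, 109 and 138 TPM in controls 2, 3 and 4 and 85.4, 106 and 137 TPM in 4A1 KO 2, 3 and 4. Of its 14 copies with enough counts to test, 12 were lower and 2 higher in 4A1 KO, and 6 of the lower passed the adjusted p. With the counts of the copies added, Hnrnpa3 had a log2 fold change of -0.35 (SE 0.05, adjusted p = 3.72e-04, edgeR), against -0.24 alone, a setting added after the data were seen. The treatment of reads with several mapping positions is not given in the sources used here. Copies of Srsf5 held 11.2% of its counts, of Hnrnpk 9.64%, of Srsf3 8.86% and of Hnrnpa1 7.47%, and those of Hnrnpc, Hnrnpf, Srsf10, Hnrnph2 and Hnrnpr at most 3.16%. Adding them changed neither the sign nor the side of the threshold of any of these 9 genes. In TPM the copies weighed more, with 62.0% of the TPM of Srsf3, 60.2% of Hnrnpa1, 46.2% of Hnrnpf, 26.8% of Srsf5 and 21.2% of Hnrnpk, so that TPM levels and ratios of these genes rest on how reads were assigned between gene and copies. The other 20 tested members had no such copy.

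The start sites of the members were searched for short motifs of common transcription factors. The RefSeq table of GRCm38.p6, which is not the build of the counts, holds 300 bases (250 before and 50 after the start) for 29 of 31 members and 27025 genes. The E-box CACGTG, the site of MYC and related factors and its own reverse complement, was in 5 of 29 windows, Hnrnpa3, Hnrnpd, Hnrnpf, Hnrnph2 and Hnrnpm, and in 8.09% of all windows. CCAAT, searched on both strands, was in 17 of 29 and in 41.1% of all, and CCGGAAG, the core of ETS factor sites, in 6 of 29 and in 9.93% of all. The 30 bases around the E-box are shown 5′ to 3′ on the gene's strand, with the E-box in capitals, for the members that hold it.
Hnrnpa3: cggatagcacatCACGTGgtgactggcccc
Hnrnpd: gcgctccggagcCACGTGaccgggacgcgc
Hnrnpf: cgagcgggcgctCACGTGgcccgaggcgcc
Hnrnph2: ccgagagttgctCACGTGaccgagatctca
Hnrnpm: gtcgttcggggtCACGTGagcgcgcaggcg
They lie at chr2:75659229-75659258, chr5:99978953-99978982 (minus strand), chr6:117907713-117907742, chrX:134601182-134601211 and chr17:33685428-33685457 (minus strand), the last 2 on the transcribed side of the start. Of these 5 genes Hnrnpa3, Hnrnph2 and Hnrnpm fell and Hnrnpf did not pass. Hnrnpd rose, close to the threshold, and did not pass by TPM or with DESeq2. A relation between the letters and the changes was not tested. A match is a description of the letters, and binding was not measured.

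Batch and sex were compared in a fit of all 8 libraries. Between batches 7 of 30 members differed at an adjusted p under 0.05, a smaller share than the 28.2% of all genes that did. Srsf1 had the smallest adjusted p, with means of 483 CPM in batch A and 653 CPM in batch B (log2 0.42, adjusted p = 4.33e-04, edgeR), beside -0.37 between the genotypes in the same fit. Srsf4, Srsf7, Srsf10 and Hnrnpll were also higher in batch B, and Srsf5 and Hnrnpdl were lower. No member passed for sex by edgeR, where 6.88% of all genes did, although 9 members had an unadjusted p under 0.05. No interaction of genotype with sex or with batch passed for any member by edgeR (adjusted p = 1, with 0 members at an unadjusted p under 0.05), and over all genes 1 and 2 did. With 8 libraries these tests can miss interactions as large as many of the genotype changes. For Hnrnph3 the interaction with batch was 0.31 (log2, SE 0.14).

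The rest of the splicing pathway was compared through 9 lists with 137 genes, of which 135 were tested. Of these 8 were called, 3 higher and 5 lower (5.93%), against 25.3% of all genes tested and 12.9% of those that averaged 100 TPM or more. Over the lists 73 genes passed the adjusted p at any fold change (54.1%), 29 higher and 44 lower. That share was near the 53.0% of all genes tested (26.3% higher and 26.7% lower), and the counts of single lists are given as descriptions beside it. The list of SR kinases, which phosphorylate SR proteins, and of nuclear import receptors for SR proteins or hnRNPs had the highest share. In it 11 of 12 genes were past the adjusted p, with 6 higher and 5 lower. All 3 SRPK genes fell, Srpk3 from 10.0 ± 3.81 CPM in control to 5.73 ± 2.62 CPM in 4A1 KO (log2 fold change -0.83, SE 0.14, adjusted p = 0.00124), which was not called without the replicate block (adjusted p = 0.117). Clk1, Clk2 and Clk4 (0.40, adjusted p = 0.00221) rose and Clk3 fell. Tnpo1, the import receptor of Hnrnpa1, fell (-0.34, adjusted p = 2.24e-04). Of the 19 SR-related proteins 4 rose and 4 fell, among them Son (0.38, adjusted p = 2.57e-04), Luc7l (0.35, adjusted p = 6.94e-04) and Pnn (-0.23, adjusted p = 0.0027).

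Among 14 hnRNP proteins with other names 5 rose and 2 fell. Pcbp2, a C-binding relative of Hnrnpk, rose from 693 ± 23.1 CPM in control to 1083 ± 72.4 CPM in 4A1 KO (log2 fold change 0.64, SE 0.05, adjusted p = 1.78e-05), and its paralog Pcbp1 fell (-0.21, adjusted p = 0.00552). The cold-inducible Cirbp rose (0.57, adjusted p = 1.97e-04), and was not called without the replicate block (adjusted p = 0.113) or without replicate 3 (log2 fold change 0.49). Of the 18 other regulators tested 4 rose and 5 fell, led by Qk, which binds introns beside regulated exons and was called (0.55, adjusted p = 5.58e-05), Celf2 (-0.35, adjusted p = 6.87e-04) and Tia1 (0.34, adjusted p = 8.38e-04).

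The next lists hold proteins of the spliceosome itself. The U1 and Sm list also held the Sm-like proteins Lsm2 to Lsm8, which belong to the U6 snRNP. By edgeR no gene of this list rose, at an unadjusted p under 0.05 either, and 5 of 17 fell. They were led by the U6 protein Lsm3 (-0.41, adjusted p = 0.00101), Snrpe (-0.33, adjusted p = 0.0015) and Snrnp70 (-0.21, adjusted p = 0.00449). Likewise 0 genes of the U2 list rose by either p and 7 of 14 fell, with Snrpa1 (-0.65, adjusted p = 1.91e-05) and Phf5a (-0.51, adjusted p = 5.47e-05) called and Sf3a1 next (-0.23, adjusted p = 0.00355). Phf5a stood close to the limit and was not called with upper quartile factors (log2 fold change -0.49) or with all 8 libraries (-0.48). In the tri-snRNP list 9 of 15 fell and 4 rose, with Prpf8, the scaffold of the catalytic core, higher (0.44, adjusted p = 6.44e-05) and Usp39 (-0.38, adjusted p = 3.53e-04) and Ppih (-0.45, adjusted p = 8.53e-04) lower. The PRP19 list was even, 4 higher and 4 lower of 11, with Cdc5l (-0.41, adjusted p = 2.33e-04) and Ctnnbl1 (-0.41, adjusted p = 3.07e-04) down and Prpf19 up (0.28, adjusted p = 9.70e-04). Of 15 genes of arginine methylation and Sm assembly, Gemin4 fell most, from 68.5 ± 16.5 CPM in control to 34.9 ± 7.96 CPM in 4A1 KO (log2 fold change -0.97, SE 0.08, adjusted p = 2.94e-05), and Prmt7 (0.30, adjusted p = 9.93e-04) and Prmt3 (0.26, adjusted p = 0.00283) rose. Gemin8, a gene named after its value was seen, was called as well (-0.62, adjusted p = 0.0182), but not without the replicate block (adjusted p = 0.0751), without replicate 2 (adjusted p = 0.124) or without replicate 3 (adjusted p = 0.0797).

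**Figure D5:**
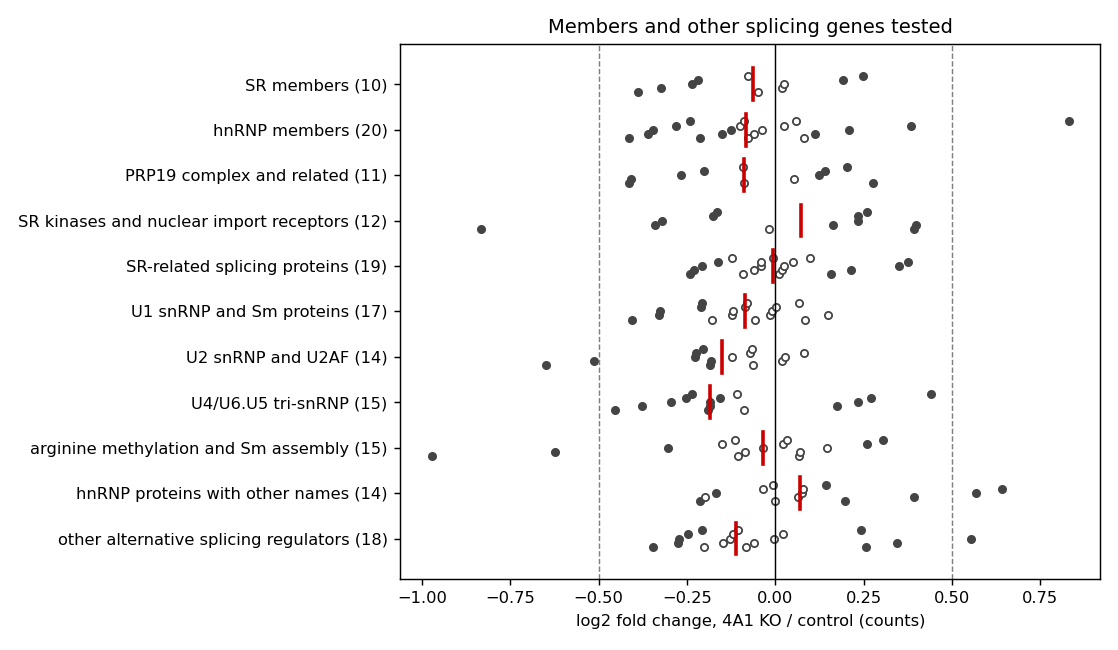
Log2 fold change between 4A1 KO and control (x axis, from counts, 3 libraries per genotype) of each tested gene of the SR and hnRNP families and of 9 other splicing lists (rows, number tested in brackets); filled points have an adjusted p under 0.05, red bars are medians and dashed lines mark 0.5 in each direction. The medians lie between -0.18 for the tri-snRNP list and 0.07 for the kinase and the hnRNP-related lists, and 9 points lie past a dashed line, Hnrnpll and 8 genes of the other lists.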

How the data were processed

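RNA-seq values of 8 libraries, 4 mice per genotype, were analysed. The authors trimmed reads with Trim Galore 0.6.6, mapped them to GRCm39 with HISAT2 2.1.0 (versions from the submitters' processing notes), counted read pairs by strand over merged isoforms with Seqmonk and deposited these raw counts without normalization. The deposited TPM were calculated by the authors with StringTie 2.1.1. No per-sample column was left unused.

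Counts were analysed with edgeR 4.0.16 in R 4.3.3 (filterByExpr, TMM, quasi-likelihood test with batch, sex and genotype), and p-values were adjusted over all genes tested with the Benjamini-Hochberg method. In the 6 libraries these covariates equal the replicate number as a block. Batch and sex in the labels pair the libraries. After subtraction of genotype means, same-numbered libraries correlated across genes (Pearson's r 0.356 to 0.514). Libraries of other numbers had r of -0.353 to 0.006, values that the subtraction itself pushes below 0, so they are no separate evidence of pairing. For TPM, limma 3.58.1 was run with these covariates on log2(TPM + 1) of genes that averaged 1 TPM or more. Errors are SD between libraries or SE of the fit, and single libraries have no interval here. Pseudogenes were matched with blastn 2.17.0, and coordinates are those of GENCODE M39. The code was tested on simulated data.

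The members and lists were chosen with earlier results of these data known. Values in every library are given for called members, the 3 highest of each family, the paralog pairs and members that differ between counts and TPM, and also for Srsf9, Hnrnpm, Hnrnpk and Hnrnpul2, which passed the adjusted p. From each other list the 3 genes with the smallest adjusted p are named, besides relatives of these given by direction. Alternatives were other scaling factors, DESeq2 1.42.0, other filters, glmTreat, a TPM pseudocount of 0.1, fits of all 8 libraries, without 1 replicate or with no replicate block, and adding pseudogene counts. The background above 100 TPM, the batch and sex effects and the pseudogene counts were added after the data were seen.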

Additional observations from a re-analysis of the deposited data

Results flagged for a closer look

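In 3 of 82 sets of 4 libraries (30 members, Eif4a1, the 8 paralog ratios and the summed TPM of both families, in each genotype) 1 library lay apart from the rest by Dixon's ratio at the 95% level, where chance alone gives about 4.1. Hnrnpu had 1415 CPM in control 1 and at least 1676 CPM in the other controls (ratio 0.9705). Hnrnpc had 707 CPM in control 2 and at least 761 CPM in the other controls (ratio 0.8944). Srsf7 had 320.4 CPM in 4A1 KO 2 and at least 379.7 CPM in the other 4A1 KO libraries (ratio 0.8558). Control 1 is outside the main fit.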

How the results depend on the processing

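Hnrnpll was the only member called in every setting of the count analysis, and no SR member was called in any. Among the alternatives to the main summary values 125 kept their direction with counts within 1.5 times, tests on the same side of the threshold and untested values within 1 SD of the replicates, and 5 did not. Within that SD the difference of the SR sum moved from -3.22% to -1.67% with all 8 libraries. No scaling moved the median of all genes by over 0.1 (log2). Without the replicate block 1 SR member rose in place of 2 and 5 genes of the other lists were called in place of 8 (Cirbp, Gemin8 and Srpk3 were lost), and the cause was not tested. With all 8 libraries the median log2 fold change of the SR members was -0.017 in place of -0.063. When a replicate was left out, 1 to 2 SR members rose and 4 to 8 hnRNP members fell, the fewest without replicate 3 and without replicate 2. The members past the adjusted p numbered 13 to 19 in these fits and 17 with DESeq2. Signs near 0 turned. Over the fits that each left out a replicate, the log2 fold change ran from -0.014 to 0.067 for Hnrnpa1 by counts, from -0.060 to 0.041 for Hnrnpa1 by TPM, from -0.042 to 0.0060 for Hnrnpf by TPM and from -0.034 to 0.024 for Hnrnpu by TPM. With all 8 libraries it was 0.0029 for Srsf2 by counts and 0.013 for Hnrnpa1 by TPM. With edgeR's glmTreat, a test against a log2 fold change of 0.5 itself, Hnrnpll was the only member that passed, and 1627 genes were called in place of 3596. By counts, 5 members lost their adjusted p under 0.05 without the block, those named in the report. By TPM 11 members passed without it, in place of 15. Srsf12, with 0 to 4 reads, could not be tested at this depth, and among the tested members the lowest counts and largest SE were those of Hnrnpll (0.12) and Hnrnph3 (0.10).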
